A study of Mus musculus with 2 samples.

Results

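Insulin secretion follows from glucose entering the beta cell, being phosphorylated and oxidised, closing potassium channels and opening calcium channels, so that docked insulin granules fuse with the plasma membrane. Beta cells gain many of the parts of this chain only as they mature, late in gestation and after birth. The 10 genes described here were grouped as genes of beta cell glucose sensing and maturation, and not all have a known step in this chain: Slc2a2 (the glucose transporter GLUT2), G6pc2 (an islet glucose-6-phosphatase that returns glucose-6-phosphate to glucose), Cox6a2 (the heart and muscle form of a cytochrome c oxidase subunit), Trpm5 (a calcium-activated cation channel), Slc30a8 (the ZnT8 transporter that loads zinc into insulin granules), Sytl4 (granuphilin, which docks those granules), Prlr (the receptor for prolactin and placental lactogen), Adra2a (the adrenergic receptor that restrains insulin release), Ppp1r1a (an inhibitor of protein phosphatase 1 that acts downstream of cAMP) and Prss53, which encodes a trypsin-like serine protease. They were taken by symbol, 10 of the 27998 genes in the files.

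The transcripts come from dissociated pancreas of C57BL/6 mouse embryos at day 18.5 of gestation, with 1 control library and 1 library labelled knockout, named Dpy30∆P in the design. Dpy30 encodes a core subunit of the complexes that methylate histone H3 at lysine 4. Which promoter drove its deletion, and which alleles the control carried, is not stated in the labels. The series describes 1 pancreas per group, so no difference below has a replicate check, and every interval is a 95% interval for counting error alone. Of 2607 control and 3228 knockout cells kept, 370 and 237 fell in the endocrine-like class, which was formed by 3 clusters led by Ins1, Ins2 and Sst, by Gcg and Ghrl, and by Neurog3. These cells were sorted by the share of their UMIs (unique molecular identifiers, each counting 1 captured transcript) that came from the insulin genes Ins1 and Ins2, because a cell with much insulin mRNA can then be compared with another of like insulin content. There were 199 control and 176 knockout cells under 1%, 17 and 12 from 1% to under 5%, 23 and 24 from 5% to under 20%, and 131 and 25 at 20% and over.

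Several facts of the libraries bear on all values. Dpy30 itself was not lower in the library labelled knockout: it had 157 CPM (UMIs of the gene for each 1000000 UMIs of the summed cells) in control and 284 CPM in knockout endocrine-like cells. A 3' tag outside the deleted part would not show the deletion, and the labels do not say where that part lies, so "knockout" below means the library labelled so. The libraries also differed in sex, with 1 and 48052 UMIs of Xist and 1624 and 0 of Ddx3y, so sex and genotype cannot be told apart. The libraries shared 27 barcodes, 12 of them among kept cells. Free insulin RNA was higher in the control library, at 449 CPM in its mesenchymal-like cells against 96.5 CPM in the knockout. G6pc2, Slc2a2, Slc30a8, Cox6a2 and Prlr had 0 UMIs in these mesenchymal-like cells of both libraries (89 and 309 cells), which allows up to 6.29 CPM and 1.84 CPM.

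The beta cell identity of the bin at 20% and over was checked against its markers. Of 6 beta cell markers 5 were detected in both libraries, with a summed level of 408063 CPM in control and 389163 CPM in knockout, but Ins1 and Ins2, which set the bins, make up most of that sum. Of the markers that the bins did not use, Iapp, the amyloid peptide stored with insulin, was at 37263 and 44495 CPM, and the transcription factors Pdx1 and Nkx6-1 were at 151 and 199 CPM and at 216 and 191 CPM. The missing marker was Mafa, a transcription factor of mature beta cells, which had 0 UMIs in all barcodes of both libraries. Glucagon stood at 32.6 and 26.2 CPM in this bin, and Neurog3, which marks endocrine progenitors, at 3.17 and 5.25 CPM. The whole lists stood higher: the 6 alpha cell markers summed to 1568 CPM in control and 2069 CPM in knockout. The 7 progenitor markers summed to 132 and 165 CPM, with a UMI in 80.9% and 80% of cells. Marker lists of other cells were not equal between the libraries here: the 9 acinar markers (8 detected in each) summed to 149 CPM in control and 506 CPM in knockout, somatostatin was at 212 and 821 CPM, pancreatic polypeptide at 270 and 1104 CPM, and the 5 cycling markers at 164 and 404 CPM. Higher in control were the erythroid markers, at 4074 and 682 CPM, the ductal markers, at 430 and 252 CPM, and the mesothelial markers, at 217 and 144 CPM. Their part in the differences given below was not tested.

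RefSeq promoter windows on GRCm38.p6 were at hand for 7 of the 10 genes. A stretch of 250 bases upstream of the transcription start is shown for Slc2a2 and Prss53, which were lower in knockout cells of the highest insulin bin, and for G6pc2 and Sytl4, which were not past 1.5-fold there. Each is written 5′ to 3′ along the gene's strand, and capitals mark every match, on either strand, of the E-box letters CANNTG and of TAAT (ATTA on the other strand), a core shared by homeodomain factors. None of the 4 stretches overlaps an exon of the GENCODE annotation.
Slc2a2, chr3:28697653-28697902, plus strand: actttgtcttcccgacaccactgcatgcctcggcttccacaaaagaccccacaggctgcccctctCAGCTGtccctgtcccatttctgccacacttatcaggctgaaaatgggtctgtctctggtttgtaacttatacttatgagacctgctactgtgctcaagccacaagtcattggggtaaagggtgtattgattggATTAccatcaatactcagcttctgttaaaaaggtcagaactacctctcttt
Prss53, chr7:127890971-127891220, minus strand: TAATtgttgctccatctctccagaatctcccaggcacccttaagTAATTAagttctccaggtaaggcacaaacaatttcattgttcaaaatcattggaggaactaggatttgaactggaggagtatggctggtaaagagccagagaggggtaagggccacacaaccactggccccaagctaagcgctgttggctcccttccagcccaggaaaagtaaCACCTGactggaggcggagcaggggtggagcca
G6pc2, chr2:69210823-69211072, plus strand: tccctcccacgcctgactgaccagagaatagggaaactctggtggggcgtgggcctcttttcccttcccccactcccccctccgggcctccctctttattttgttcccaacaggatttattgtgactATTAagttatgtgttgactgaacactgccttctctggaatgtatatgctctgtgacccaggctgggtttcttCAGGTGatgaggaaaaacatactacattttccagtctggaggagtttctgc
Sytl4, chrX:133981813-133982062, minus strand: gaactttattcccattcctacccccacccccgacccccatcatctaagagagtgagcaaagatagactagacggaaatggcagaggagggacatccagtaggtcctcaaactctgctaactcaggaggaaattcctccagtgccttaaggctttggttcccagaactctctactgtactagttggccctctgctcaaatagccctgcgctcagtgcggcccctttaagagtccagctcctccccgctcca
Slc2a2 and Prss53 each had 1 E-box match, G6pc2 had 1 in this window and Sytl4 had 0. TAAT was found 1 time in Slc2a2, 3 times in Prss53, 1 time in G6pc2 and 0 times in Sytl4. Another G6pc2 window, chr2:69219699-69219948, is not shown and held 4 E-box and 3 TAAT matches, so the matches do not separate the lower genes from the others. Such short letters are common: 66.2% of all 32851 windows held CANNTG and 54.9% held TAAT. CG dinucleotides numbered 2 in Slc2a2, 2 in Prss53, 3 in G6pc2 and 5 in Sytl4, against a median of 6 over all windows, and Adra2a, whose window is not shown, had 22. No match was tested for binding, and the data hold no readout of these sites.

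In the cells richest in insulin, transcripts of the glucose transporter gene Slc2a2 and of Cox6a2 were lower in the knockout library, whereas those of the granule genes Slc30a8 and Sytl4 had ratios close to 1. In this bin of 20% and over, 4 of the 10 genes were at least 1.5-fold lower in knockout cells and 0 were at least 1.5-fold higher; among all 7500 genes with at least 20 UMIs in the bin, 15.1% were lower by that much and 17.4% were higher. Among the better-counted genes with at least 100 UMIs, as all 10 had here, the shares were 6.36% and 6.49%. The 4 genes were Prss53, Cox6a2, Slc2a2 and Prlr. The median log2 ratio of knockout to control was -0.48 over the 10 genes and 0.07 over all genes. The compared cells were alike in depth and insulin, with medians of 15146 and 14421 UMIs and insulin shares of 35.9% and 32.9%.

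**Figure D1:**
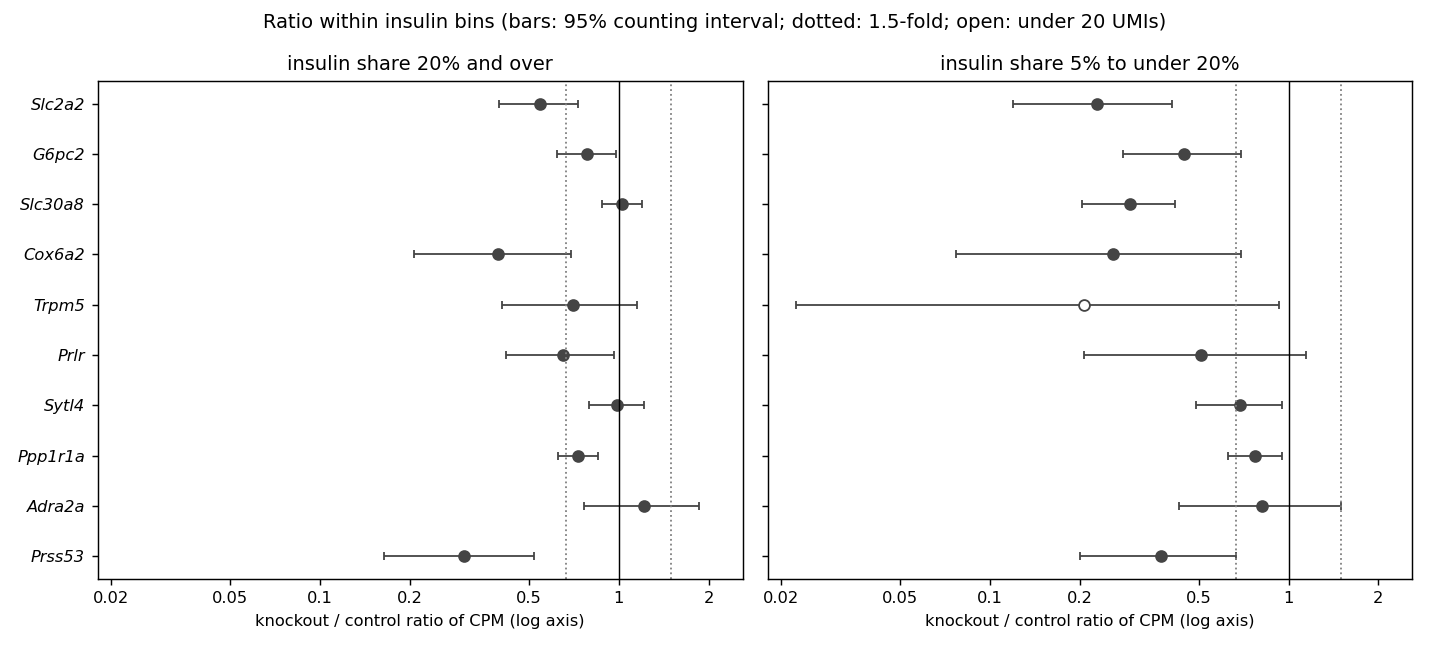
Ratio of knockout to control level (CPM, log axis) of the 10 genes in cells with an insulin share of 20% and over (left) and of 5% to under 20% (right); points are ratios, bars 95% counting intervals, dotted lines 1.5-fold, and the open point has under 20 UMIs. Slc30a8, Sytl4 and Adra2a lie near 1 on the left, and Slc30a8 lies at 0.294 on the right.

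Among the genes of glucose handling, Slc2a2 had 511 UMIs in the 131 control cells of this bin and 48 UMIs in the 25 knockout cells. Its level was 231 CPM (212 to 252) in control and 126 CPM (92.8 to 167) in knockout, which was 1.84-fold lower (1.37 to 2.53). The median cell held 3 UMIs in control and 1 in knockout, and the intervals of the summed levels did not overlap. G6pc2, which works against glucose phosphorylation, was at 300 CPM (278 to 324) in control and 236 CPM (190 to 290) in knockout, 1.27-fold lower (1.02 to 1.60). Its intervals overlapped and it did not pass 1.5-fold.

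Cox6a2 had 191 control and 13 knockout UMIs in the same bin, or 86.5 CPM (74.7 to 99.7) against 34.1 CPM (18.2 to 58.3). The knockout level was 2.54-fold lower (1.45 to 4.85). Its transcripts were unevenly spread, with the median cell at 0 UMIs in both libraries and UMIs in 42.0% of control and 24.0% of knockout cells. Cox6a1, the form of the subunit found in most tissues, had 1190 and 197 UMIs and a ratio of 0.959 (0.820 to 1.12), and lay close to its control level.

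The 2 granule genes gave ratios close to 1 here. Slc30a8 was at 515 CPM (485 to 545) in control and 530 CPM (459 to 608) in knockout, a ratio of 1.03 (0.882 to 1.20). Sytl4 was at 274 CPM (252 to 296) and 270 CPM (221 to 328), a ratio of 0.988 (0.793 to 1.22). Both intervals include 1, and dividing by the median ratio of all genes in the bin placed Slc30a8 slightly under 1. The summed level of Slc30a8 hides a difference per cell: the median cell held 8 of its UMIs in control and 4 in knockout. Of its 202 knockout UMIs, 28 came from the highest cell and 22 from the next. For Sytl4 the median cell held 4 UMIs in both libraries. Sytl4 lies on the X chromosome, so the difference in sex between the libraries applies to it in particular.

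Of the channel and receptor genes, Trpm5 was counted thinly, with 148 control and 18 knockout UMIs. It stood at 67.0 CPM (56.7 to 78.7) in control and 47.2 CPM (28.0 to 74.6) in knockout, 1.42-fold lower with an interval that includes 1 (0.868 to 2.46). Prlr was at 109 CPM (95.8 to 124) in control and 70.8 CPM (46.7 to 103) in knockout, 1.54-fold lower (1.03 to 2.39). Of the 27 knockout UMIs of Prlr, 8 came from 1 cell, and the median cell of both libraries had none. Adra2a pointed the other way, at 56.2 CPM (46.7 to 67.0) in control and 68.2 CPM (44.5 to 99.9) in knockout, a ratio of 1.21 that its interval does not separate from 1 (0.763 to 1.86). Ppp1r1a, the phosphatase inhibitor, was the most counted of the 10 genes, with 1483 and 187 UMIs. It was at 672 CPM (638 to 707) in control and 490 CPM (423 to 566) in knockout, 1.37-fold lower (1.18 to 1.60) and short of 1.5-fold.

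Prss53 had the largest ratio away from 1 of the 10 genes in this bin. It had 267 UMIs in control and 14 in knockout cells, or 121 CPM (107 to 136) against 36.7 CPM (20.1 to 61.6), 3.29-fold lower (1.93 to 6.11). At least 1 UMI was found in 67.2% of control cells (median 1 UMI) and in 32.0% of knockout cells (median 0). Its transcripts were rare in mesenchymal-like cells, with 1 UMI in 89 control and 2 UMIs in 309 knockout cells, whose median depths were 5211 and 5102 UMIs.

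**Figure D2:**
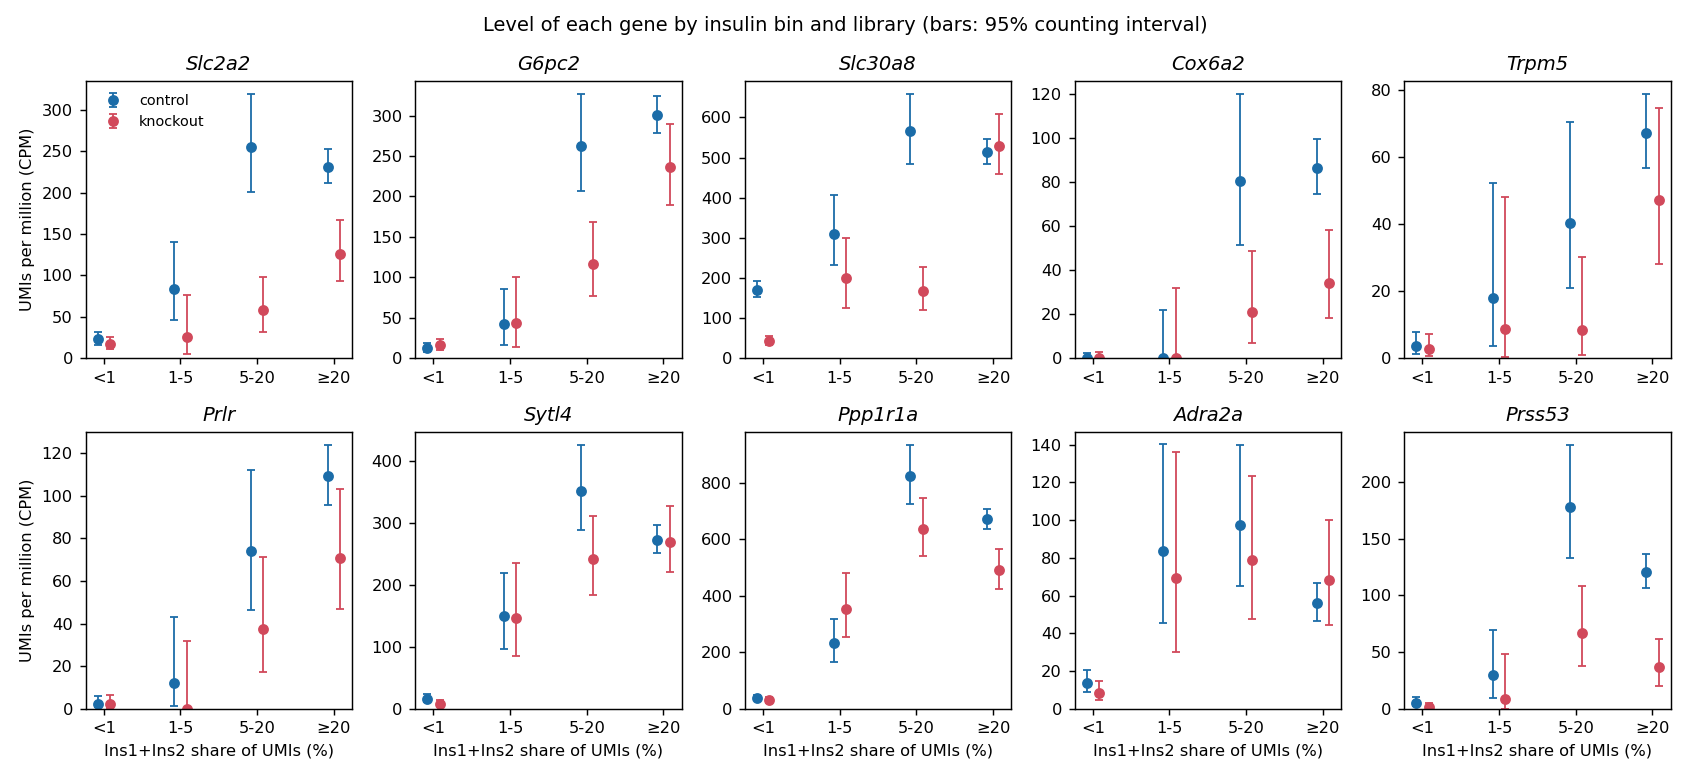
Level of each gene (CPM) against the insulin share of the cells' UMIs in 4 bins, control in blue and knockout in red; points are summed levels and bars 95% Poisson intervals. Slc2a2, Cox6a2 and Prss53 of the knockout library lie below control in both upper bins, while Slc30a8 and Sytl4 meet the control level at 20% and over.

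In the intermediate cells, at 5% to under 20% insulin, the genes differed more widely. Here 6 of the 9 genes with at least 20 UMIs were at least 1.5-fold lower in knockout cells, against 12.3% of the 3491 genes that passed, and 0 of the 9 were higher, against 16.3%. The 6 were Slc2a2, Slc30a8, Cox6a2, Prss53, G6pc2 and Prlr, and Trpm5, the gene under 20 UMIs, had 12 and 2. Prlr had 22 and 9 UMIs and was 1.97-fold lower with an interval that includes 1 (0.872 to 4.86); with bins set by Ins2 alone its ratio was 0.968. The median log2 ratio was -1.17 over the 9 genes and 0.06 over all genes. The bin was small and its cells were less alike: median depth was 13109 UMIs in the 23 control cells and 7455.5 in the 24 knockout cells, and glucagon was at 121 and 3411 CPM. The median insulin share was 16.1% in control and 13.1% in knockout. Ins2 was at 113472 and 83038 CPM, and Ins1, the other way, at 40856.5 and 50206 CPM. Mesenchymal markers summed to 60.4 and 850 CPM, cycling markers to 151 and 4.16 CPM and erythroid markers to 15502 and 1216 CPM. The part of these markers in the differences was not tested. Of the knockout cells 3 belonged to the clusters led by Gcg and Ghrl or by Neurog3, and of the control cells 0.

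Slc30a8 was past 1.5-fold lower in these cells and close to a ratio of 1 in the richest ones. It had 169 UMIs in control and 40 in knockout cells, or 567 CPM (485 to 660) against 167 CPM (119 to 227), 3.41-fold lower (2.40 to 4.94). Within the control library its level in this bin and in the highest differed by less than counting error (ratio of the highest to this one 0.907, interval 0.771 to 1.07), whereas within the knockout library the highest bin stood 3.18-fold above it (2.26 to 4.58). Slc2a2 showed a like order, with 255 CPM (201 to 319) in control and 58.3 CPM (31.9 to 97.8) in knockout, 4.38-fold lower (2.45 to 8.38). From this bin to the highest, its control level had a ratio of 0.907 (0.712 to 1.17) and its knockout level a ratio of 2.16 (1.17 to 4.24). G6pc2 went from 262 to 300 CPM in control, a ratio of 1.15 (0.906 to 1.47), and from 117 to 236 CPM in knockout, a ratio of 2.02 (1.31 to 3.21). In control cells the 3 genes were therefore near the level of the highest bin by 5% to under 20% insulin, and in knockout cells they were below it. Not all genes followed this order. From this bin to the highest in knockout cells, Ppp1r1a had a ratio of 0.770 (0.618 to 0.960). Prss53 was at 0.551, Adra2a at 0.862 and Sytl4 at 1.12, with intervals that include 1. Prlr at 1.89 and Cox6a2 at 1.64 also had intervals that include 1, and Trpm5 was at 5.67 (1.36 to 50.4). The control cells of this bin also lay nearer the highest bin in insulin, with median shares of 16.1% and 13.1%. With 1 library per group the difference between these steps, and the part of insulin share in it, was not tested.

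Single cells carried much of the knockout signal in this bin. One knockout cell, with 14.2% insulin and 14922 UMIs, held 14 of the 28 UMIs of G6pc2, 7 of 9 of Prlr, 4 of 5 of Cox6a2 and 4 of 14 of Slc2a2. In the control library 1 cell held 14 of the 24 UMIs of Cox6a2. Leaving out the cell with most UMIs of the gene in each library took the ratio of G6pc2 from 0.445 to 0.276 and that of Prlr from 0.508 to 0.170. Prss53 was more evenly spread, at 53 and 16 UMIs, 178 CPM (133 to 233) and 66.6 CPM (38.1 to 108), 2.67-fold lower (1.503 to 5.00). Sytl4 was 1.46-fold lower (1.05 to 2.05), Ppp1r1a 1.30-fold lower (1.05 to 1.60) and Adra2a 1.23-fold lower with an interval across 1 (0.667 to 2.32), so that these 3 genes stayed under 1.5-fold in both upper bins.

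Cells with under 1% insulin carried few of these transcripts, apart from those of Slc30a8. Under 1% insulin, 6 of the 10 genes had at least 20 UMIs, and 3 of these were at least 1.5-fold lower in knockout cells, against 10.1% of all 9766 genes that passed. Slc30a8 had 285 UMIs in control and 61 in knockout cells, or 170 CPM (151 to 191) against 43.5 CPM (33.3 to 55.9), 3.92-fold lower (2.96 to 5.25). Sytl4 had 27 and 11 UMIs, 2.06-fold lower (0.988 to 4.60), and Adra2a had 23 and 12, 1.61-fold lower (0.767 to 3.54), both with intervals that include 1. Cox6a2 had 0 UMIs in both libraries, which allows up to 1.79 CPM in control and 2.14 CPM in knockout. This bin holds cells of several kinds whose makeup differed: glucagon was at 23715 CPM in control and 7222 CPM in knockout. From 1% to under 5% insulin the libraries had 17 and 12 cells, too few to order the genes: of the 4 with at least 20 UMIs, 1 was past 1.5-fold lower (Slc30a8, with 52 and 23 UMIs, 1.56-fold, interval 0.938 to 2.67), against 14.5% of the 2099 genes that passed, and 1 was past it higher (Ppp1r1a, with 39 and 41 UMIs, ratio 1.52, interval 0.958 to 2.42), against 13.5%.

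Within each library the genes were higher in the cells richest in insulin than in those under 1%, though not to the same degree. From cells under 1% insulin to cells at 20% and over, Prlr was 45.6-fold higher in control (17.6 to 169) and Slc30a8 3.02-fold higher (2.65 to 3.45), with the other genes having UMIs in both bins between them. Cox6a2 had 0 CPM in the bin under 1% in both libraries. The lower bounds of its counting intervals for this step were 38.8-fold higher in control and 11.2-fold higher in knockout. The same step for Slc30a8 was 12.2-fold in knockout cells (9.10 to 16.5). Adra2a was already at 83.5 CPM at 1% to under 5% insulin in control and at 56.2 CPM in the highest bin (ratio 0.672, interval 0.386 to 1.27), and so did not increase with insulin above that point beyond counting error. Prss53 was at 178 CPM in control cells at 5% to under 20% and at 121 CPM above (ratio 0.680, interval 0.505 to 0.931). Over the same step in control, Adra2a had a ratio of 0.577 (0.383 to 0.897), Sytl4 0.776 (0.630 to 0.964) and Ppp1r1a 0.813 (0.710 to 0.935). The intervals of the remaining genes for this step include 1.

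Thinning each cell to 2000 UMIs set the depths equal and showed how many of the 10 genes a cell held. At 20% and over the median cell had UMIs of 3 of the 10 genes in both libraries, with means of 3.27 in 130 control and 2.72 in 25 knockout cells. At 5% to under 20% the median was 3 genes in 23 control cells and 1 gene in 24 knockout cells, and 0 control cells but 5 knockout cells had none of the genes. At full depth the medians in that bin were 6 and 4.5 genes. The summed level of the 10 genes there was 2733 CPM (2548 to 2927) in control and 1433 CPM (1285 to 1592) in knockout, and in the highest bin 2431 CPM (2367 to 2497) and 1909 CPM (1773 to 2053).

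**Figure D3:**
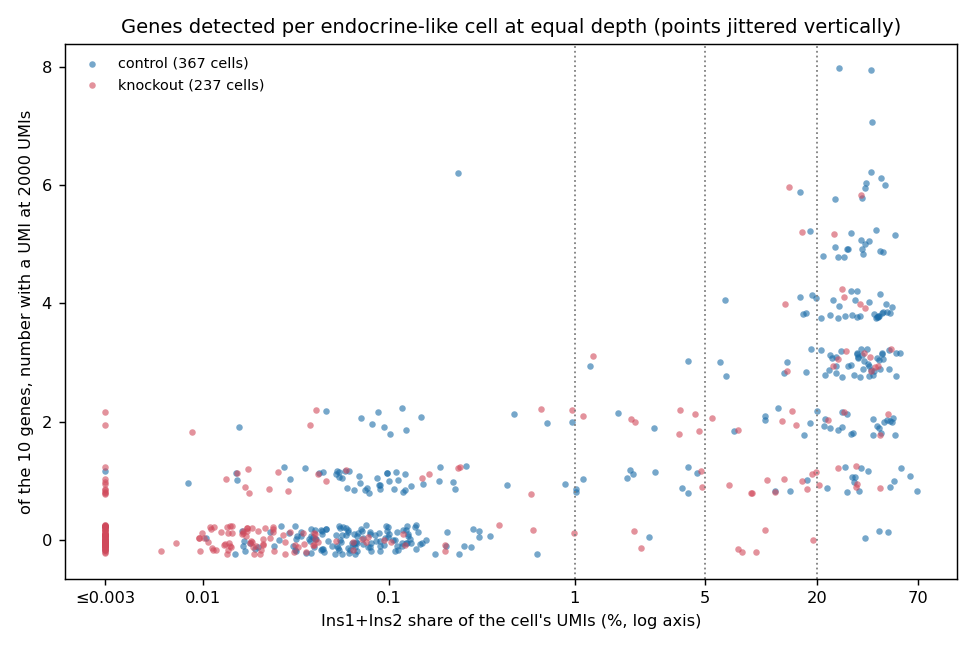
Number of the 10 genes with at least 1 UMI in each endocrine-like cell thinned to 2000 UMIs, against the cell's insulin share (log axis, dotted lines at the bin edges of 1%, 5% and 20%), for 367 control (blue) and 237 knockout (red) cells. At 5% to under 20% insulin the control cells centre on 3 genes and the knockout cells on 1.

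Over all endocrine-like cells together each of the 10 genes had a lower ratio of knockout to control than in the highest bin, though the ratios of Slc2a2, Slc30a8 and Trpm5 were lower still at 5% to under 20% insulin, and the knockout library also had a smaller share of insulin-rich cells. Cells at 20% and over made up 35.4% of the control and 10.5% of the knockout endocrine-like cells. Of the 10 genes, 9 were at least 1.5-fold lower in knockout and 0 higher, against 6.36% and 21.6% of the 11044 genes that passed, and Adra2a was 1.44-fold lower (1.08 to 1.94). All genes had a median log2 ratio of 0.25, and the 10 genes one of -1.56. Fewer cells of a kind and less RNA per cell cannot be told apart in such sums. Each gene was therefore also given the level it would have had with control bin levels combined in the knockout library's proportions of UMIs. The bin at 20% and over held 50.8% of the control and 17.8% of the knockout endocrine-like UMIs.

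That makeup alone gave levels between 1.27-fold (Adra2a) and 2.07-fold (Prlr) under control. Prss53 was observed 4.98-fold lower (3.48 to 7.36) where makeup gave 1.65-fold, so its level was a further 3.02-fold below. Cox6a2 was observed 5.88-fold lower (3.63 to 10.1) where makeup gave 2.02-fold, a further 2.91-fold. Slc2a2 was observed 3.53-fold lower (2.83 to 4.46), where makeup gave 1.65-fold, a further 2.15-fold, and Slc30a8 2.48-fold lower (2.20 to 2.80), where makeup gave 1.33-fold, a further 1.86-fold. The remainder was 1.69-fold for Trpm5, 1.64-fold for Prlr, 1.38-fold for G6pc2, 1.26-fold for Ppp1r1a, 1.21-fold for Sytl4 and 1.13-fold for Adra2a. The observed interval of Adra2a included the value that makeup gave, and the intervals of the other 9 genes did not; the control bin levels carry counting error of their own that is not in these intervals. For Ins2, which set the bins, the remainder was 1.11-fold. Makeup here means that of the insulin bins alone, and cells of different kinds can share a bin. The bin under 1% held 65.5% of the knockout endocrine-like UMIs, with glucagon at 23715 CPM in control and 7222 CPM in knockout. How much of each remainder came from cell kinds within the bins was not tested.

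**Figure D4:**
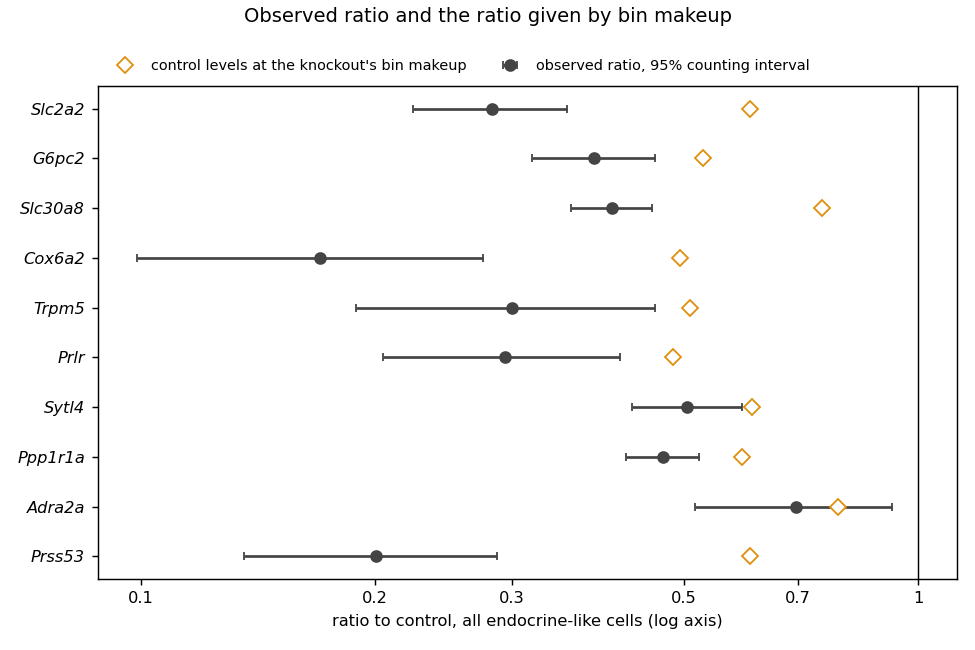
Observed ratio of knockout to control level over all endocrine-like cells (grey points, bars 95% counting intervals) and the ratio given by control bin levels at the knockout library's bin makeup (open diamonds), on a log axis, for each of the 10 genes. The points of Prss53, Cox6a2, Slc2a2 and Slc30a8 lie well to the left of their diamonds, and the bar of Adra2a covers its diamond.

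Hormone classes, set by the hormone that took at least 1% of a cell's UMIs and was its largest, showed which genes were shared with other islet cells. The insulin class held 164 control and 57 knockout cells, the glucagon class 75 and 28, the somatostatin class 25 and 19, and the ghrelin or pancreatic polypeptide class 15 and 12. Slc30a8 was abundant in glucagon cells, with 226 UMIs in control and 24 in knockout, or 352 CPM against 107 CPM, 3.27-fold lower (2.14 to 5.22). In insulin cells as a whole it was at 510 and 372 CPM, 1.37-fold lower (1.20 to 1.57). Ppp1r1a was also present in glucagon cells, at 68.5 and 89.5 CPM, a ratio of 1.31 with an interval across 1 (0.730 to 2.27).

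Other genes were nearly bound to the insulin class. Cox6a2 had 215 control and 18 knockout UMIs there and 0 in each of the other 5 classes. Prlr, Prss53 and Sytl4 stood at 10.8 CPM or less in the glucagon, somatostatin and ghrelin or pancreatic polypeptide classes of the control library. Slc2a2 had 14 UMIs in control somatostatin cells, all from 4 cells, and 0 in knockout ones. The bound of its counting interval was 3.12-fold lower there. It also had 12 and 0 UMIs in cells with neither hormone nor a Neurog3 UMI, where that bound was 2.74-fold lower. Both totals were under the minimum of 20 UMIs. In cells with a Neurog3 UMI and no hormone, by contrast, Slc2a2 had 14 and 24 UMIs, 28.3 and 36.9 CPM, a ratio of 1.30 (0.647 to 2.72). Sytl4 had 23 and 4 UMIs in cells with neither, or 77.2 and 13.6 CPM, 5.67-fold lower (1.94 to 22.6).

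**Figure D5:**
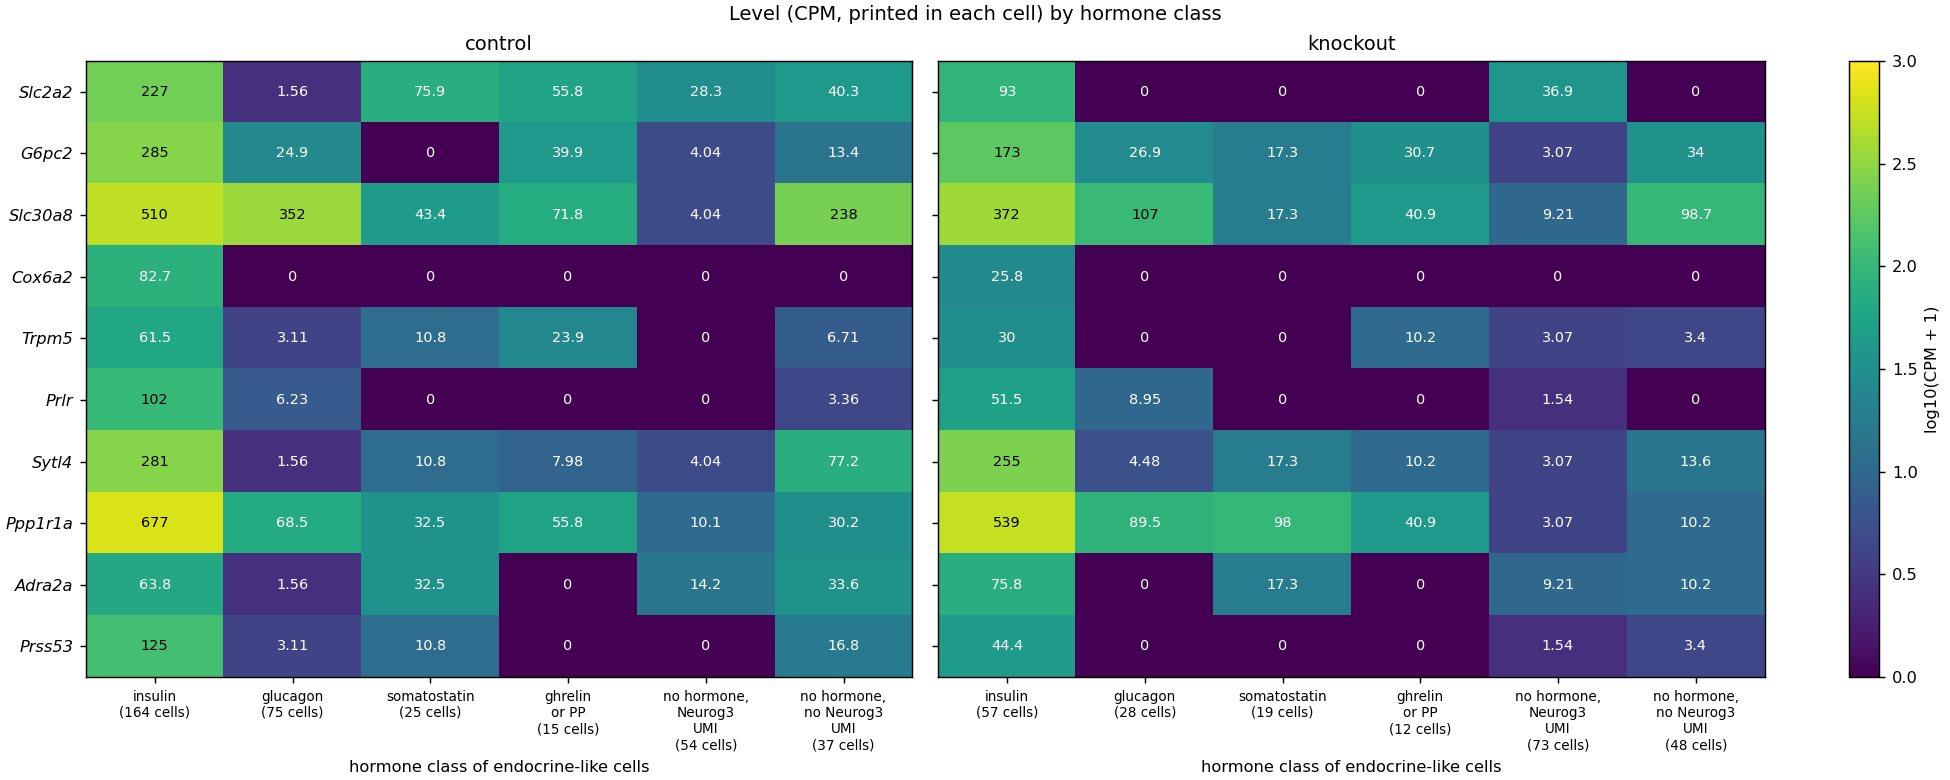
Level of each gene (CPM, printed in each field; colour is log10 of CPM + 1) by hormone class of the endocrine-like cells, control left and knockout right, with cell numbers under each column. Cox6a2 appears in the insulin column alone, and Slc30a8 is also high in the glucagon column, at 352 CPM in control and 107 CPM in knockout.

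In the acinar-, ductal-, mesenchymal-, mesothelial-, mural-, endothelial- and immune-like cells the 10 genes were at 11.2 CPM or less, with 3 exceptions. The unnamed clusters (1032 control and 1124 knockout cells) and the small erythroid-like and neural classes were not read. The class named erythroid-like was led by Ptprcap, Cd69 and Ltb ahead of its haemoglobin genes. Slc2a2 was at 115 CPM in control and 81.5 CPM in knockout ductal-like cells (470 and 254 UMIs), 1.42-fold lower (1.21 to 1.66). Adra2a was at 60.6 and 47.2 CPM in mural-like cells (38 and 14 UMIs), 1.28-fold lower with an interval across 1 (0.679 to 2.56). Trpm5 was at 21.0 and 16.6 CPM in mesenchymal-like cells (10 and 27 UMIs), 1.26-fold lower (0.545 to 2.69), so that its level in insulin-poor endocrine-like cells, at 3.59 and 2.85 CPM under 1% insulin, was below that of mesenchyme.

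The wider pathway was read from 9 lists with 174 genes, chosen with earlier results of these data known, in the bin of 20% and over. The shares of all genes past 1.5-fold there, given above, are the background for each count. Of 15 counted genes of glucose sensing and metabolism, 2 were at least 1.5-fold higher in knockout and 0 lower: Mpc1, a subunit of the mitochondrial pyruvate carrier, at a ratio of 1.60 (1.11 to 2.27), and G6pc3, the widely expressed glucose-6-phosphatase, at 1.58 (0.759 to 3.04). Of 14 genes of excitability and calcium, 6 were higher and 2 lower; Abcc8, the sulphonylurea receptor of the potassium channel, had a ratio of 1.33 (1.01 to 1.74), Atp2a2, the calcium pump of the endoplasmic reticulum, one of 1.01 (0.848 to 1.19), and Scn9a, a sodium channel, one of 2.32 (1.15 to 4.42). Cacna1c, a calcium channel, had 21 and 1 UMIs (ratio 0.276, interval 0.00667 to 1.71).

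Of 18 genes of granule exocytosis, 3 were lower and 0 higher. Rab27a, the small GTPase to which Sytl4 binds, was 1.65-fold lower (0.996 to 2.89), with 162 and 17 UMIs. Syt4, a synaptotagmin, had 33 and 3 UMIs, Syt13 a ratio of 1.18 (0.942 to 1.47) and Cplx2, a complexin, was 1.39-fold lower (0.986 to 2.01). Of 19 genes of receptors and cAMP, 3 were higher and 2 lower: Pde10a, which breaks down cyclic nucleotides, had a ratio of 2.26 (1.63 to 3.09), Gcgr, the glucagon receptor, 47 and 3 UMIs, Gnas, the stimulatory G protein, a ratio of 0.992 (0.922 to 1.07) and Ppp1ca, a catalytic subunit of the phosphatase that Ppp1r1a inhibits, a ratio of 1.01 (0.810 to 1.25). Of 6 genes of prolactin signalling, 2 were higher and 1 lower; Ghr, the growth hormone receptor, had a ratio of 1.01 (0.653 to 1.498), and Ccnd2, a cyclin, a ratio of 1.00 (0.878 to 1.14) with 1523 and 264 UMIs. Men1, with 21 and 6 UMIs, and Stat5b, with 17 and 5, were counted too thinly to place.

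The other maturation genes and the beta cell transcription factors were mostly under 1.5-fold in this bin. Of 19 maturation genes 2 were higher and 1 lower: Dlk1, a Notch ligand relative of fetal tissue, was higher (830 and 1364 CPM, ratio 1.64, interval 1.49 to 1.81), and Nnat, an endoplasmic reticulum protein of insulin cells, 1.59-fold lower (1.496 to 1.69). Iapp had a ratio of 1.19 (1.17 to 1.21) and Pcsk2, a prohormone convertase, one of 1.06 (0.985 to 1.13). Of 16 transcription factors 0 were higher and 1 lower: Myt1, with 66 and 6 UMIs, was 1.90-fold lower (0.828 to 5.36), whereas Isl1 had a ratio of 1.35 (1.05 to 1.72), Neurod1 one of 1.01 (0.820 to 1.24) and Rfx3 one of 1.43 (0.770 to 2.49). Of genes that beta cells normally keep silent, 3 of 19 had at least 20 UMIs, and 1 of these was lower (Mgst1, with 46 and 4 UMIs); Zyx had 16 and 4 UMIs and Nfib, under the minimum, 15 and 3. Among relatives of the 10 genes, 5 of 11 were higher and 0 lower, among them Slc30a4 (17 and 9 UMIs, ratio 3.07, interval 1.20 to 7.27) and Trpm4 (16 and 6 UMIs, ratio 2.17, interval 0.696 to 5.84).

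At 5% to under 20% insulin 9 of 17 maturation genes were at least 1.5-fold lower and 1 was higher, against 12.3% and 16.3% of all genes that passed there. Nnat was there 2.42-fold lower, at 4814 and 1986 CPM, and Dlk1 again higher (ratio 1.53, interval 1.31 to 1.80). Ccnd2, at a ratio of 1.00 in the highest bin, was 4.33-fold lower here, with 161 and 30 UMIs. The 5 cycling markers also differed in this bin, with 45 UMIs in control and 1 in knockout, and their part in the ratio of this cyclin was not tested. Of 13 transcription factors 1 was lower and 1 higher, and Neurod1 had a ratio of 1.05 (0.811 to 1.35).

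The genes most like each of the 10 over the 4 bins of both libraries were ranked by Pearson's r of log2(CPM + 10) among 6379 genes, as a description of 8 groups that share their libraries and depth. Sytl4 was closest to Ero1lb (r = 0.995), an oxidase of the endoplasmic reticulum, Ppp1r1a to Sec61g (0.994), G6pc2 to Fam151a (0.991), Adra2a to Entpd3 (0.986), Slc2a2 to Tmed2 (0.986) and Prlr to Dnajb11 (0.986). Slc30a8 was closest to Srp54b (0.983), Cox6a2 to Nucb2 (0.979), Prss53 to Tram1 (0.970) and Trpm5 to Ssr4 (0.949).

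In the authors' deposited table of genes that mark clusters, 7 of the 10 genes were listed, all in cluster 7 of that table. Ppp1r1a came at rank 1 of 233 in the authors' deposited table, Sytl4 at 4, G6pc2 at 8, Prss53 at 18, Slc2a2 at 26, Trpm5 at 75 and Adra2a at 108. Slc30a8, Cox6a2 and Prlr were not among its genes. Adra2a was also listed for cluster 6 of the authors' deposited table, at rank 37 of 148.

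The genes lie on different chromosomes (GRCm38, GENCODE vM21 annotation). Slc2a2 spans chr3:28697903-28731359 on the plus strand with 11 exons, and its last exon, from which a 3' method reads, covers 4084 bases. Prss53 spans chr7:127885841-127890970 and Cox6a2 chr7:128205435-128206387, both on the minus strand with 11 and 3 exons and last exons of 441 and 378 bases. Slc30a8 spans chr15:52295553-52335798 with 8 exons, and Sytl4 chrX:133936385-133981812 with 17. G6pc2 lies on chromosome 2, Trpm5 on chromosome 7, Prlr and Ppp1r1a on chromosome 15 and Adra2a on chromosome 19.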

How the data were processed

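The deposited counts are whole UMI counts per gene and barcode of 10x Chromium 3' v2 libraries, written by Cell Ranger 3.0.0 per the file headers; the submitters' processing notes also list the builds mm10 and GRCm38 and the package Seurat in versions 2 and 3. In the authors' deposited table of cluster genes, the p-value columns, the fraction of a cluster's cells with the gene, and the score (an average log fold change of unstated base) come from the authors; here only its order of genes was used, and the score was not.

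The control library had 3986 barcodes with 25398522 UMIs and the knockout 4779 with 33048640. Left out were 1290 and 1465 barcodes that had fewer than 500 genes, 63 and 57 whose mitochondrial share was above 10%, and 26 and 29 Scrublet doublets. Counts were scaled to 10000 and logged, and 2000 variable genes (without hormone, enzyme, haemoglobin, mitochondrial, ribosomal and sex-linked genes) gave 30 components, 15 neighbours and Leiden clusters at resolution 1. Clusters with at least 3 markers of a class among their 50 leading genes were named; the 10 genes could take part in this clustering, and Ppp1r1a was among the leading genes of 1 endocrine-like cluster. UMIs were summed per library and bin and divided by the bin's total (CPM), with exact Poisson intervals for levels, Clopper-Pearson intervals for shares and conditional binomial intervals for ratios; a gene counts as past 1.5-fold with at least 20 UMIs over both libraries. With 1 library per group no test was run.

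The genes and lists were chosen with earlier results of these data known. Named genes were the 10 members, of each list the 2 with most UMIs in endocrine-like cells and the 2 furthest from a ratio of 1 in the highest bin, and the closest genes by correlation; Mafa and the marker genes were added after their values were seen. One gene of the lists is not reported here. Simulated counts for the highest bin (7215 genes) had the true ratio inside the interval for 96.4% of unaltered and 98.4% of 193 altered genes. These counts were drawn as Poisson counts of the whole bin, as the interval assumes. They check its calculation only and leave out the spread between cells and between animals. Clustering used scanpy 1.11.5 with igraph 0.11.9 and leidenalg 0.10.2, and intervals SciPy 1.17.1, under Python 3.11.15 with pandas 2.3.3 and NumPy 2.4.6. Alternatives varied filters, doublets, clustering, denominators, bins, depth and free RNA.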

Additional observations from a re-analysis of the deposited data

Results flagged for a closer look

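Barcodes with under 500 detected genes, which enter no comparison above, held transcripts of the 10 genes above the limit that a count of 0 allows. In the 1290 such control barcodes the 10 genes had 23 UMIs together, or 7.15 CPM (4.53 to 10.7), where 3 counts are worth 0.933 CPM. In the 1465 knockout barcodes they had 8 UMIs, or 1.87 CPM (0.807 to 3.68), where 3 counts are worth 0.701 CPM. Insulin took 0.289% and 0.0321% of the UMIs of these barcodes.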

How the results depend on the processing

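Of 17 alternatives, 2 (leaving out the cell with most UMIs of a gene, and an upper limit of 40% insulin on the highest bin) were chosen after seeing the data, as was the background at 100 UMIs. The number of the 10 genes at least 1.5-fold lower in knockout ranged from 3 to 5 in the highest bin, 4 to 7 at 5% to under 20%, 2 to 4 under 1% and, over 14 alternatives, 8 to 10 in all endocrine-like cells. The share of all genes past 1.5-fold under each alternative is not set beside these ranges. They therefore describe the counts of the 10 genes only. In the highest bin Slc2a2 and Prss53 were past 1.5-fold in 17 of the 17, Cox6a2 in 16, Prlr in 15 and Trpm5 in 4, and Slc30a8, Sytl4, G6pc2, Ppp1r1a and Adra2a in 0. Prlr moved most there, to a ratio of 0.124 with bins set by Ins2 alone (93 control and 13 knockout cells) and to 0.301 with an edge at 30%, where Cox6a2 was at 0.162 with Ins2 alone; Trpm5 was at 0.347 in thinned cells. In the other direction, Prlr lost 1.5-fold with the upper limit of 40% (0.902) and in thinned cells (0.743), and Cox6a2 in thinned cells (0.678). At 5% to under 20%, Prlr was past 1.5-fold in 14 of the 17 and ranged from a ratio of 0.159 without cells of other hormones or Neurog3 to 0.958 in thinned cells and 0.968 with Ins2 alone. There thinning took Ppp1r1a to a ratio of 1.14 and Adra2a to 0.319, and edges of 10% and 30% took Slc30a8 to 0.673; the cause was not tested. Under 1%, defining endocrine cells by pan-endocrine markers took Slc2a2 to 0.101, and leaving out other hormone and Neurog3 cells took Ppp1r1a to 0.338. Dividing by the median ratio of all genes, 0.25 on the log2 scale over all endocrine-like cells, changed no direction but that of Slc30a8 in the highest bin, from 0.04 to -0.03 on the log2 scale. No paired analysis was possible because each group has 1 library. The 25 knockout cells of the highest bin set the precision: genes with under 30 UMIs there (Cox6a2, Prss53, Trpm5, Adra2a, Prlr) have intervals whose upper bound is at least 2 times the lower.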
